A study of Mus musculus with 3 samples.

Results

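Cyr61 (Ccn1), Ctgf (Ccn2) and Wisp2 (Ccn5), 3 genes of the CCN family of matricellular proteins, were followed through Müller glia that carry an active form of the Hippo effector YAP. The members were taken by name, as 3 of the 18478 genes in the deposited count table. Of the 6 genes of the family, 5 have a row in that table. The cells were compared within each run in 3 ways: by Igfbp2 level, by cell cycle transcripts and by the level of the immediate early genes Fos and Junb. The members and these splits were proposed from measured values of the same cells, so the members' levels across the splits are given as descriptions with no test. Tests were kept for comparisons other than these 3 splits. Those that cross the splits, or rank cells by Cyr61 or Ctgf, still use the same cells. Their p-values for genes of the family are therefore not free of that choice.

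The cells came from adult mice that carried Yap5SA+/tg together with Glast-CreERT2+/tg and with R26R-tdTomato+/tg and had received tamoxifen and then NMDA, a glutamate receptor agonist that injures retinal neurons. Glast-CreERT2 is active in Müller glia and in other astroglia of the retina, Yap5SA is a YAP that the Hippo kinases cannot phosphorylate at its regulatory serines, and tdTomato marks the cells in which recombination took place. At day 2 after NMDA the tdTomato+ retinal cells were sorted and profiled with the 10X Genomics droplet assay, in 3 runs that form 1 group. Cells without Yap5SA or NMDA were not analysed here, so all comparisons are between cells of the same runs. The labels do not say whether the runs are separate animals. With run as a block, p-values measure how a difference between classes varies over the runs, and that variation may be technical.

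CCN proteins are secreted into the matrix, where they bind integrins and proteoglycans and modulate growth factors such as TGF-beta, BMP and VEGF. CYR61 and CTGF are classical targets of YAP and its TEAD partners, and Cyr61 is also an immediate early gene that serum induces, in part through SRF. WISP2 and WISP1 were named for their induction by WNT1, and WISP2 lacks the C-terminal domain that the other family members have.

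In RefSeq, the Cyr61 gene lies on the minus strand of chromosome 3 (145646971 to 145649985, GRCm38.p6), Ctgf on chromosome 10 (24595442 to 24598683), Wisp2 on chromosome 2 (163820752 to 163833146) and Wisp1 on chromosome 15 (66891369 to 66923201). The 250 bases before the Cyr61 start (chr3:145649986-145650235, minus strand, written 5′ to 3′) are shown because Cyr61, a known TEAD target, is the member with an entry in the RefSeq promoter table used; Ctgf and Wisp2 have none there and were not searched. The capitals mark the TEAD motif CATTCC.
Cyr61: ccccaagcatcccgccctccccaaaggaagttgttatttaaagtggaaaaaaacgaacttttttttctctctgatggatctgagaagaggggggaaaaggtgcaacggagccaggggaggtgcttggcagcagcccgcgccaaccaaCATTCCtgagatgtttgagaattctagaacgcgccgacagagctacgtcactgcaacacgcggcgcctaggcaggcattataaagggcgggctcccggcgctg
The motif occurs once, its first base 103 bases before the start. CATTCC is found on either strand in 12.6% of 32851 RefSeq promoter windows of the same length. Searched on both strands too, the AP-1 motif TGANTCA is not in this window and is in 6.75% of the windows, and TGACGTCA, the motif of CREB, is not in it and is in 1.55%. The CArG box of SRF is not in it and is in 1.47% of the windows. These are matches of letters and not measured binding.

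Of the 24695 cells in the count table, 24672 passed the limits on genes and mitochondrial UMIs (7668, 8799 and 8205 in runs 1 to 3). Before these limits the runs held 94858762, 122888236 and 97032672 UMIs, with medians of 9664, 11200.5 and 9407 UMIs per cell. Clustering without the CCN genes gave 22 clusters, and 21711 cells, in which Cyr61, Ctgf and Wisp2 were mainly followed, lay in clusters called Müller glia-like from Glul, Rlbp1, Aqp4, Clu and the other markers. A further 253 cells were astrocyte-like, 74 were microglia-like, and 5 clusters stayed unnamed. Of the unnamed clusters, 0, 15 and 16 (1329, 241 and 996 cells) had 12 Müller glia markers at 100 CPM or more. The Müller glia-like set thus leaves out cells with these markers. It also takes in clusters low in them, since the name needed only 5 such markers at 100 CPM and no other type's markers. In clusters 2, 3, 4, 6 and 19 the median ratio of the markers to the other cells was 0.379, 0.304, 0.347, 0.191 and 0.427. In the microglia-like cluster it was 0.248. The runs were not alike: cluster 0 (unnamed) held 1326 cells of run 1 among its 1329, and cluster 13, led by the immediate early genes Maff, Atf3 and Egr2, held 2006 cells of run 3 among its 2284. Pairs of runs shared 95, 83 and 108 cell barcodes. Values below are CPM, the summed UMIs of a gene in the cells of a class and run scaled to the class's total. Each UMI stands for the 3′ end of a transcript, so no length scaling was applied.

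Cyr61 was present throughout the Müller glia, while Ctgf and Wisp2 were sparse. In Müller glia-like cells Cyr61 stood at 1269.7, 1284 and 1779.7 CPM in runs 1 to 3 (1444 ± 290.4, SD, n = 3). Ctgf stood at 24.0, 26.6 and 17.7 CPM in them (22.8 ± 4.59) and Wisp2 at 56.8, 33.6 and 49.7 CPM (46.7 ± 11.9). Run 3 was the highest in Cyr61 and the lowest in Ctgf. At 3500 UMIs per cell, to which each cell was thinned, 91.1% of Müller glia-like cells had a Cyr61 UMI, 6.63% a Ctgf UMI and 6.95% a Wisp2 UMI; before thinning the shares were 96.5, 19.7 and 15.7%. No cell was shallower than that depth. Microglia, which are not expected to express Glast, gave 33.5%, 2.38% and 2.38% at the same depth. Median depths before thinning were 10252 UMIs in Müller glia-like and 15301 UMIs in microglia-like cells. All 3 shares in Müller glia-like cells were above those in microglia-like cells, where Cyr61 stood at 123, 405 and 424 CPM. The microglia-like shares rest on 42, 21 and 11 cells in runs 1 to 3, and those of Ctgf and Wisp2 come from few cells. Before thinning, microglia-like cells, 0.300% of all cells, held 0.287% of all Ctgf UMIs (24 UMIs), close to their share of cells. They held 0.0661% of all Cyr61 UMIs and 0.0616% of all Wisp2 UMIs (8 UMIs). The family's other rows were Wisp1, at a mean of 17.5 CPM over all cells (5484 UMIs), and Nov, with 27 UMIs in all.

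Ctgf was highest in the astrocyte-like cluster, whose leading genes included Igfbp5, Rgs5, Lcn2 and S100b. There Ctgf stood at 247, 349 and 250.4 CPM (282 ± 58.0), above every run of the Müller glia-like cells. These 253 cells, 1.03% of the total, held 13.1% of all Ctgf UMIs, and 58.7% of them had a Ctgf UMI at 3500 UMIs. Cyr61 in the same cells, at 1145, 1322 and 1572 CPM (1346 ± 214), overlapped the Müller glia-like range. Wisp2, at 18.4, 45.8 and 64.4 CPM, also overlapped it. Clusters were formed from the other genes of these cells, and levels between them are a description.

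Among Müller glia-like cells Cyr61 was graded rather than split. Per 10000 UMIs, the median cell had 11.9, 12.4 and 17.3 Cyr61 UMIs in runs 1 to 3. The 10th percentile stood at 1.48, 3.12 and 5.94, and the 90th at 26.6, 24.8 and 34.6. The richest decile of cells held 28.9, 28.6 and 27.5% of the Cyr61 UMIs, and single cells reached 149, 145 and 248 raw UMIs. Wisp2 was concentrated: its richest decile of cells held 86.2, 91.7 and 92.4% of its UMIs. For Ctgf the richest decile held 66.3, 65.6 and 73.7%. Correlations between the 3 members from cell to cell were near 0. Pearson's r of thinned log values was 0.06, 0.06 and 0.05 for Cyr61 with Ctgf, 0.00, 0.00 and -0.03 for Cyr61 with Wisp2 and 0.00, 0.02 and -0.00 for Ctgf with Wisp2 (5590, 8373 and 7748 cells). In counts this sparse such values carry no finding.

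The 3 members had different high clusters. Cyr61 averaged 2309 CPM in cluster 13 (Maff, Atf3) and 2066 CPM in cluster 8 (Ier2, Zfp36, Junb). It averaged 738 CPM in cluster 4, led by the mitotic genes Cdc20, Cenpa and Ccnb1, where all runs lay low (767, 602 and 845 CPM). The S phase cluster 2 (Hist1h2ap, Mcm6) had 1415 CPM of Cyr61 and cluster 3, led by Ube2c and Cdk1, had 1453 CPM, close to the mean of all Müller glia-like cells. Cluster 6 (S100a11) had 479 CPM, with a median of 4996 UMIs per cell. Wisp2 averaged 135 CPM in cluster 5 (Cdkn1c, Ogn, Nuak2, with Wisp2 itself among the leading genes), 121 in cluster 3, 79.0 in cluster 4, 69.6 in cluster 2 and 48.0 in cluster 6. The clusters led by Maff or Ier2 had Wisp2 at 1.03 and 1.19 CPM. After the astrocyte-like cluster, Ctgf was highest in cluster 1 (Necab2, C1ql1), at 42.4, 42.0 and 42.3 CPM. Cluster 11 (Necab2, Agt) had 29.8 CPM of Ctgf and clusters 4, 12 and 14 had 10.7, 10.8 and 10.7. Several of these classes hold few cells of 1 or more runs, so cluster means also carry differences between runs.

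**Figure D1:**
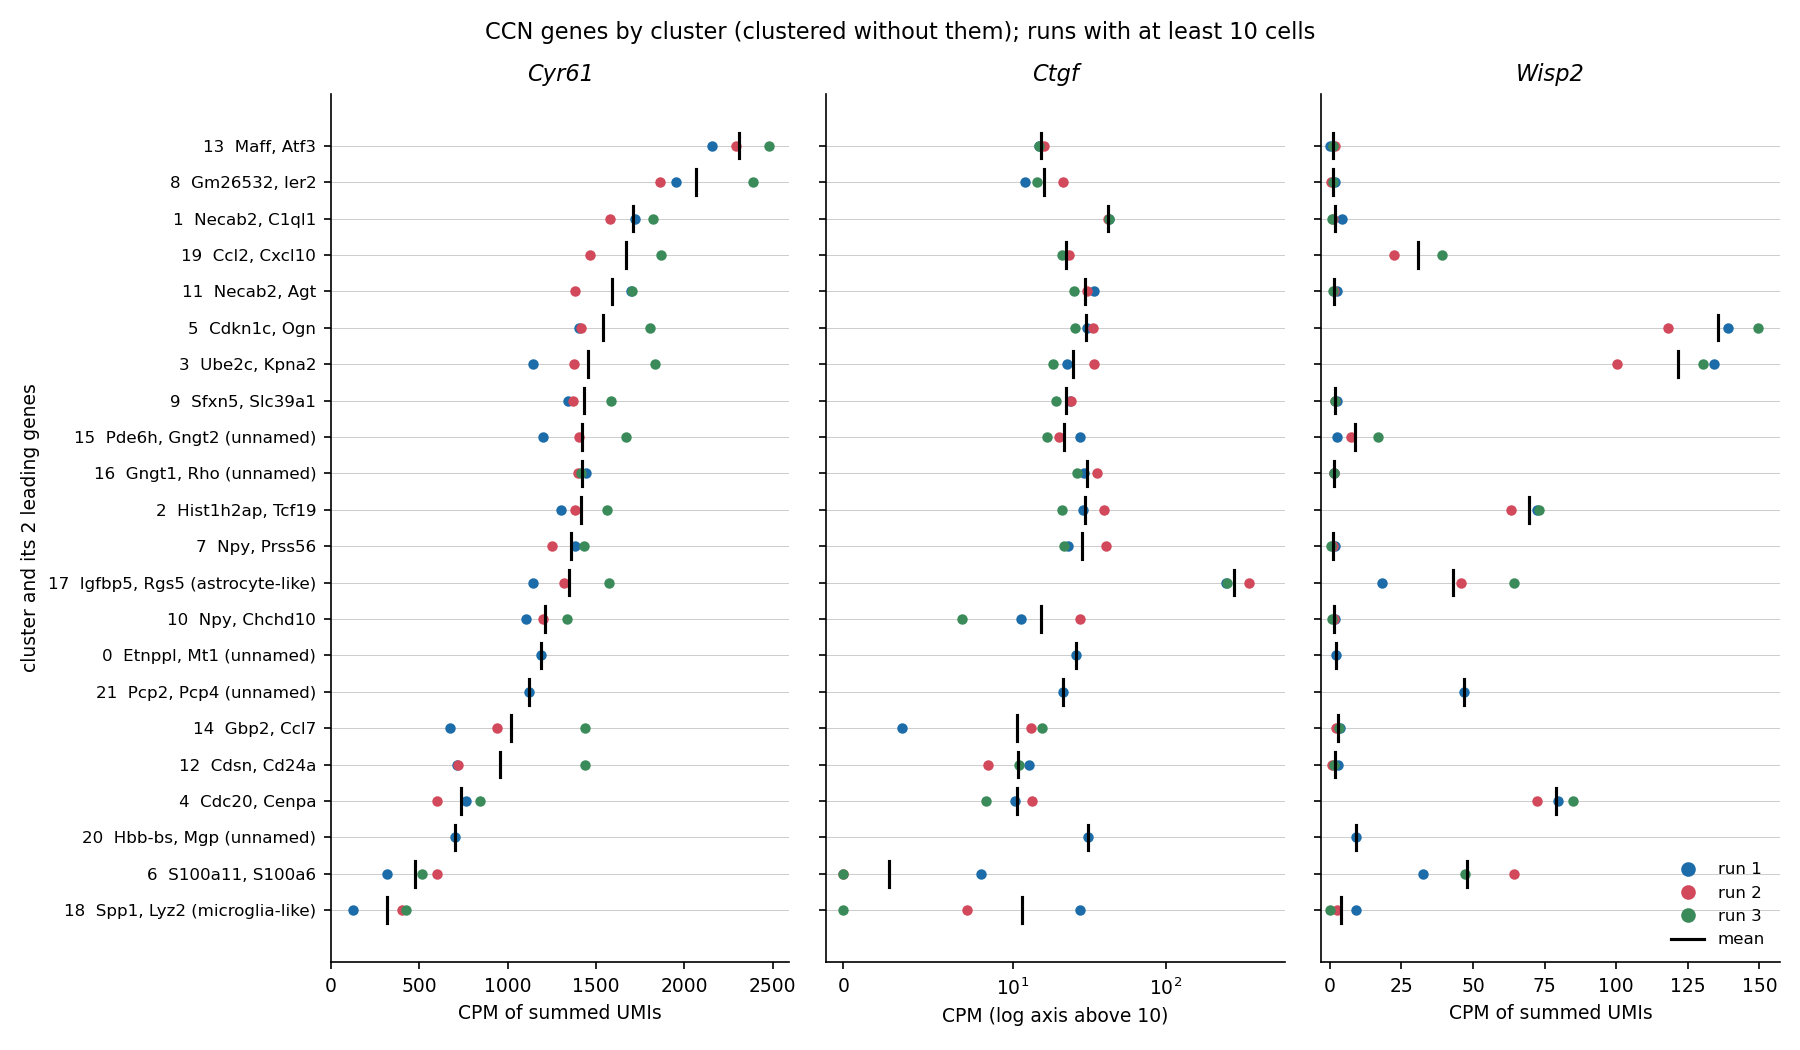
Levels of Cyr61, Ctgf and Wisp2 (x axis, CPM of summed UMIs) in each cluster (y axis, ordered by Cyr61), with a point per run and a bar at the mean. Cyr61 is highest in cluster 13 (2309 CPM), Ctgf in the astrocyte-like cluster 17 (282 CPM) and Wisp2 in clusters 5 and 3 (135 and 121 CPM).

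Igfbp2, a secreted binding protein of insulin-like growth factors, separated the members sharply. The 6520 cells with at least 5 Igfbp2 UMIs per 10000 were set against the 15054 cells with less than 1. Wisp2 stood at 99.6, 74.1 and 111 CPM in Igfbp2-high cells (94.9 ± 18.9), against 1.94, 1.77 and 1.29 CPM in Igfbp2-low cells (1.67 ± 0.336). The classes were far apart in every run, by 57.8-fold in the fit (log2 5.85 ± 0.15, SE). Igfbp2-high cells were 26.4% of all cells and held 96.6% of all Wisp2 UMIs. Wisp1 followed the same way, at 33.3, 33.6 and 39.4 CPM in Igfbp2-high cells against 3.50, 3.75 and 3.19 CPM in Igfbp2-low cells (log2 3.39 ± 0.09, SE), and Igfbp2-high cells held 86.5% of its UMIs.

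Cyr61 did not separate by Igfbp2. It stood at 1199, 1275 and 1588 CPM in Igfbp2-high cells (1354 ± 206), against 1281, 1274 and 1902 CPM in Igfbp2-low cells (1486 ± 361). The ranges overlapped, and the fitted log2 change was -0.06 ± 0.07 (SE), with 0.01, 0.03 and -0.24 in the runs. Igfbp2-high cells had more RNA captured, with run medians of 18744 to 21902.5 UMIs per cell against 8521 to 10403 in Igfbp2-low cells. Counted per cell, Cyr61 stood at 27.8 UMIs in Igfbp2-high cells and 14.5 UMIs in Igfbp2-low cells. Doublets were not removed, and their part in these depths was not tested.

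Ctgf stood at 30.6, 38.7 and 25.1 CPM in Igfbp2-high cells (31.5 ± 6.84) and at 23.8, 24.1 and 17.1 CPM in Igfbp2-low cells (21.7 ± 3.97). It was higher in the Igfbp2-high class of every run (log2 0.59 ± 0.06, SE). Astrocyte-like cells made up 241 of the 6520 Igfbp2-high cells (3.70%) and 4 of the 15054 Igfbp2-low cells (0.0266%). Within the Müller glia-like cells, Ctgf stood at 24.3, 30 and 18.3 CPM in Igfbp2-high cells and 23.1, 23.6 and 16.5 CPM in Igfbp2-low cells, and the fitted difference was 0.23 ± 0.07 (SE). The Ctgf difference was thus smaller without the astrocyte-like and unnamed clusters, while that of Wisp2 stood at 5.86.

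The 2 classes also differed in Fos, which stood at 657, 694 and 1432 CPM in Igfbp2-high cells against 2207, 2308 and 3712 CPM in Igfbp2-low cells, and in Junb, at 191, 265 and 425 CPM against 982, 1269 and 2168 CPM. With the Fos+Junb level held (cells compared inside the same quintile of their run, an added fit), Cyr61 was higher in Igfbp2-high cells by 0.66 ± 0.08 on the log2 scale, 1.57-fold. Among Müller glia-like cells it was higher by 0.64 ± 0.08. The value near 0 over all cells thus stood beside lower Fos and Junb in the Igfbp2-high class. Wisp2 differed by 5.76 ± 0.16 with the level held, and Ctgf by 1.15 ± 0.11, or 0.36 ± 0.08 in Müller glia-like cells only.

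Across finer Igfbp2 levels Wisp2 climbed through the whole range. It averaged 1.51 CPM in the 13452 cells with no Igfbp2 UMI, then 2.58, 2.80, 12.3, 15.6, 35.8, 43.7, 64.3, 107 and 152 CPM in successive classes up to 50 Igfbp2 UMIs per 10000 and over. Wisp1 went alongside, at 3.43 CPM in the lowest class and 48.3 CPM in the highest. Cyr61 had no single direction: 1532 CPM in cells with no Igfbp2 UMI, 1126 CPM at 5 to 6 per 10000 and 1645 CPM at 50 and over. Just inside the limit of the Igfbp2-high class, the 163 cells at 5 to 6 per 10000 had Wisp2 at 29.5, 8.92 and 69.1 CPM. Just outside it, the 173 cells at 4 to 5 had 2.80, 9.31 and 34.7 CPM. Cyr61 and Ctgf were 1126 and 31.3 CPM inside and 1299 and 35.9 CPM outside. The limit of the Igfbp2-low class had Wisp2 at 2.58 CPM inside (over 0 to 1) and at 2.80 CPM outside (1 to 2).

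**Figure D2:**
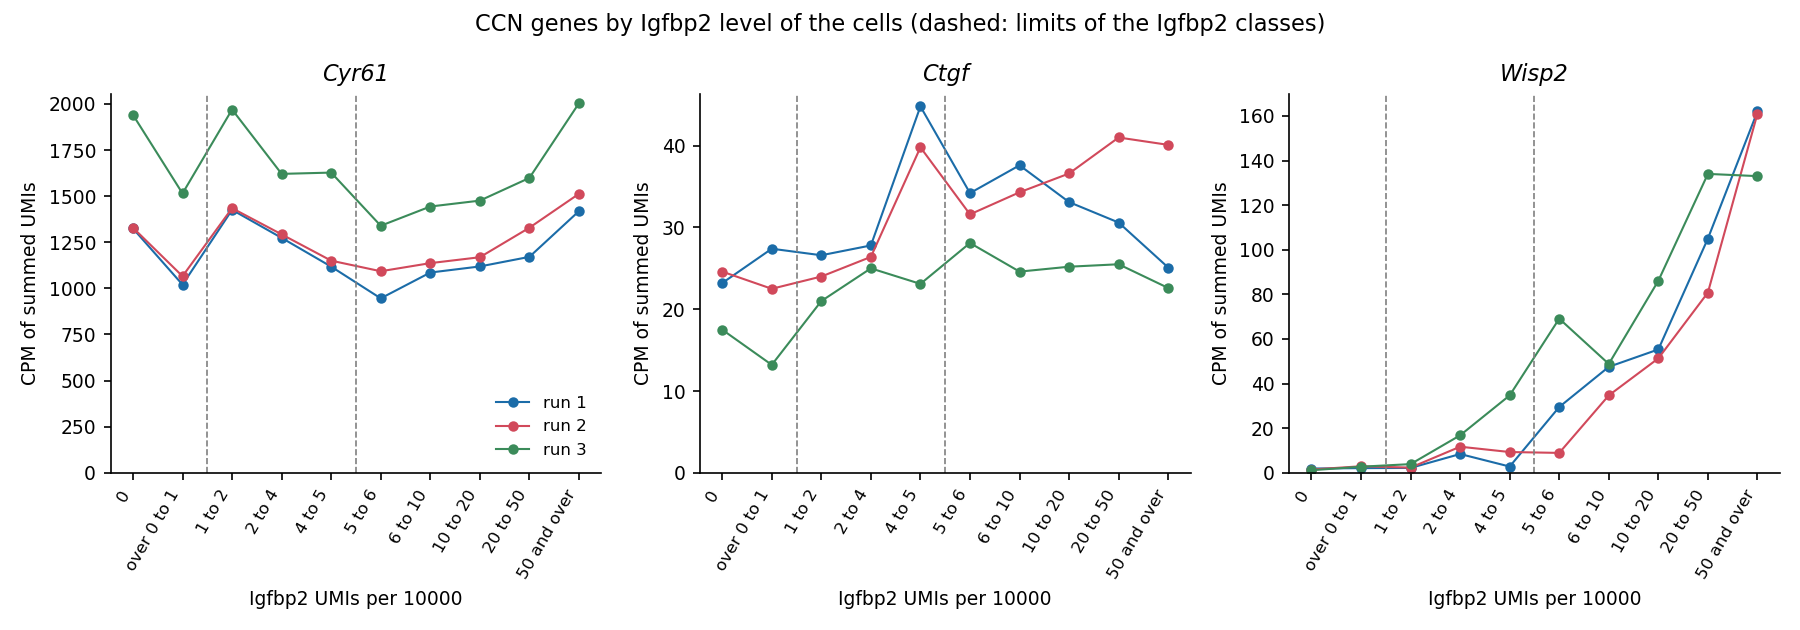
Cyr61, Ctgf and Wisp2 (y axes, CPM of summed UMIs) in cells grouped by Igfbp2 UMIs per 10000 (x axis, low to high), with a line per run and dashed lines at the limits of the Igfbp2 classes. Wisp2 averages 1.51 CPM in the lowest class and 152 CPM in the highest, whereas Cyr61 is 1532 CPM in the lowest and 1645 CPM in the highest.

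Cycling cells were those with at least 2 UMIs of Top2a, Mki67, Cdk1 and Ccnb1 together, 5596 of the 24672. Wisp2 stood at 88.7, 63.3 and 98.2 CPM in cycling cells (83.4 ± 18.1), against 19.8, 12.5 and 16.3 CPM in the other 19076 (16.2 ± 3.63). The runs did not overlap, and the fitted difference was 2.41 ± 0.08 (log2, SE). Cyr61 stood at 1132, 1239 and 1538 CPM in cycling cells (1303 ± 210.5), against 1325, 1315 and 1910.2 CPM in cells not cycling (1517 ± 341). It was lower in cycling cells of every run, though the ranges over runs overlapped (log2 -0.17 ± 0.05, SE). With the Fos+Junb quintile held the direction turned, to 0.39 ± 0.06 higher in cycling cells, and among the cells of the authors' normalised table the change was -0.0041 ± 0.05. Cycling cells were deeper, with run medians of 20258.5 to 23143 UMIs against 8586 to 10228.5 in cells not cycling, so per cell Cyr61 stood at 28.2 UMIs in cycling cells and 15.1 UMIs in the others. Ctgf overlapped, at 24.4, 30.6 and 18.3 CPM in cycling cells and 28.9, 30.5 and 22.5 CPM in cells not cycling. The 480 cells with 2 UMIs of these genes, just inside the limit, had Wisp2 at 40.6 CPM, and the 2515 cells with 1 UMI, just outside, had 26.6 CPM. Cyr61 was 1374 and 1469 CPM in those cells, and Ctgf 28.5 and 27.4 CPM.

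Cycling and Igfbp2 level went together: cycling cells made up 71.0, 79.8 and 77.2% of Igfbp2-high cells in runs 1 to 3, against 2.09, 1.98 and 1.66% of Igfbp2-low cells. Inside the Igfbp2-high class Wisp2 was lower in cycling cells than in the rest, at 95.1, 69.2 and 107 CPM in the 4961 cycling cells and 115, 103 and 133 CPM in the 1559 not cycling. Restricted to Müller glia-like cells, the values were 95.9, 68.6 and 106 CPM in cycling cells against 129, 117 and 148 CPM in cells not cycling. The higher Wisp2 of cycling cells over all cells was therefore not found among Igfbp2-high cells. Inside the Igfbp2-low class Wisp2 was near its floor, at 0.738, 7.77 and 3.74 CPM in 286 cycling cells and 1.98, 1.60 and 1.22 CPM in 14768 not cycling. Wisp1 went the other way inside the Igfbp2-high class, at 36.4, 35.5 and 42.0 CPM in cycling cells against 22.3, 22.2 and 25.6 CPM in cells not cycling. Cyr61 there was 1156, 1252 and 1565 CPM in cycling cells and 1350.2, 1409.8 and 1709 CPM in cells not cycling, lower in the cycling cells of each run. Ctgf was 24.8, 31.5 and 18.5 CPM in cycling Igfbp2-high cells and 51.0, 80.4 and 59.9 CPM in the rest, of which 13.5% were astrocyte-like against 0.605% of the cycling. With Müller glia-like cells only, Ctgf was 23.5, 29.9 and 17.1 CPM in cycling cells and 27.5, 30.6 and 25.3 CPM in cells not cycling.

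Fos and Junb, the immediate early genes that build AP-1, went with Cyr61 and against Wisp2. The upper quintile of each run by Fos+Junb share of UMIs (4933 cells) began at 42.1, 46.4 and 80.6 UMIs per 10000, and the lower quintile (4935 cells) ended at 6.37, 9.71 and 19.7. Cyr61 stood at 2056, 2030.5 and 2977 CPM in the upper quintile (2354 ± 539), against 842, 1047 and 1141 CPM in the lower quintile (1009.7 ± 153). The quintiles did not overlap, with a fitted difference of 1.18 ± 0.09 (log2, SE), 2.27-fold. Depth ran the other way, with run medians of 7607 to 8988 UMIs per cell in the upper quintile and 14148.5 to 21359 in the lower, so that a cell of either class held about as many Cyr61 UMIs: 19.8 in the upper quintile and 19.2 in the lower. Shares of RNA cannot tell more Cyr61 transcripts per cell from less of the other RNA.

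Wisp2 stood at 4.79, 2.90 and 1.85 CPM in the upper Fos+Junb quintile (3.18 ± 1.49), against 79.7, 61.6 and 87.8 CPM in the lower (76.4 ± 13.4), a log2 change of -4.61 ± 0.21 (SE). Among the cells of the authors' normalised table that change was -2.34 ± 0.19. Ctgf overlapped, at 21.5, 22.6 and 16.5 CPM in the upper quintile and 22.1, 25.3 and 18.2 CPM in the lower. Through the 5 quintiles, low to high, Cyr61 averaged 1009.7, 1301, 1409, 1682 and 2354 CPM. Wisp2 averaged 76.4, 55.1, 24.9, 9.04 and 3.18 CPM, and Ctgf was highest in the middle, at 21.9, 30, 32.8, 26.4 and 20.2 CPM. The fourth of these values in each series is the class just outside the upper quintile. The quintiles differed in their Igfbp2-high cells, which were 2.35, 1.93 and 0.853% of the upper quintile in runs 1 to 3 and 71.7, 82.0 and 73.1% of the lower.

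**Figure D3:**
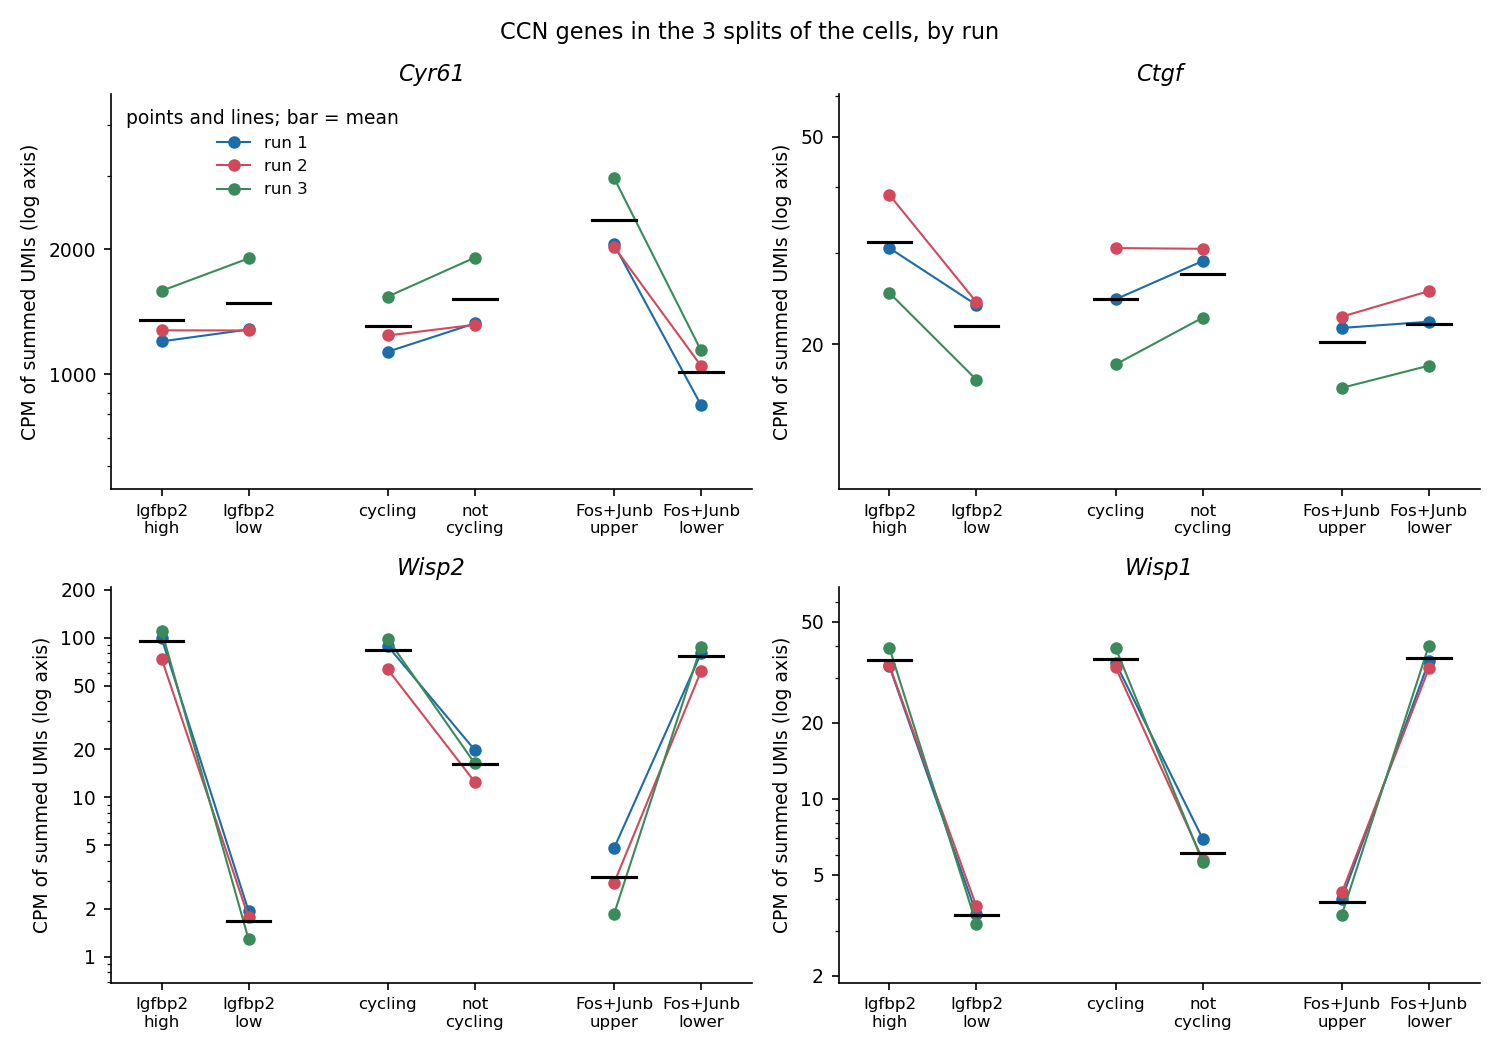
Cyr61, Ctgf, Wisp2 and Wisp1 (y axes, CPM of summed UMIs, log axes) in the Igfbp2, cycling and Fos+Junb classes (x axis), with a point per run joined within a run and a black bar at the mean of 3 runs. Wisp2 and Wisp1 separate in all 3 splits, Cyr61 separates by Fos+Junb (means 2354 and 1009.7 CPM), and Ctgf shows smaller differences.

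With the 2 splits crossed, Cyr61 followed Fos+Junb in both Igfbp2 classes, while Wisp2 was lower at high Fos+Junb only among Igfbp2-low cells, where it was scarce. Among Igfbp2-high Müller glia-like cells, Cyr61 averaged 1038, 1587, 2001, 2465 and 3585 CPM through the Fos+Junb quintiles of the run, low to high (3397, 1916, 668, 185 and 67 cells). Among Igfbp2-low Müller glia-like cells it averaged 573, 871, 1220.4, 1632 and 2333 CPM (644, 2003, 3117, 3513 and 3546 cells). Cyr61 averaged more in the Igfbp2-high cells of each quintile. Wisp2 in Igfbp2-high cells averaged 87.4, 99.6, 129, 125 and 84.5 CPM, with no drop in the upper quintile beyond the spread of runs (106, 87.2 and 60 CPM there, against 89.7, 68.9 and 104 CPM in the lower). In Igfbp2-low cells Wisp2 averaged 5.21, 1.69, 1.63, 1.48 and 1.23 CPM, with 1.25, 1.29 and 1.14 CPM in the upper quintile of runs 1 to 3 against 4.53, 7.57 and 3.54 CPM in the lower, which did not overlap. Ctgf in Igfbp2-high cells averaged 19.7, 29.5, 31.5, 26.5 and 29.1 CPM, and in Igfbp2-low cells 15.4, 19.7, 22.3, 22.9 and 19.5 CPM.

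**Figure D4:**
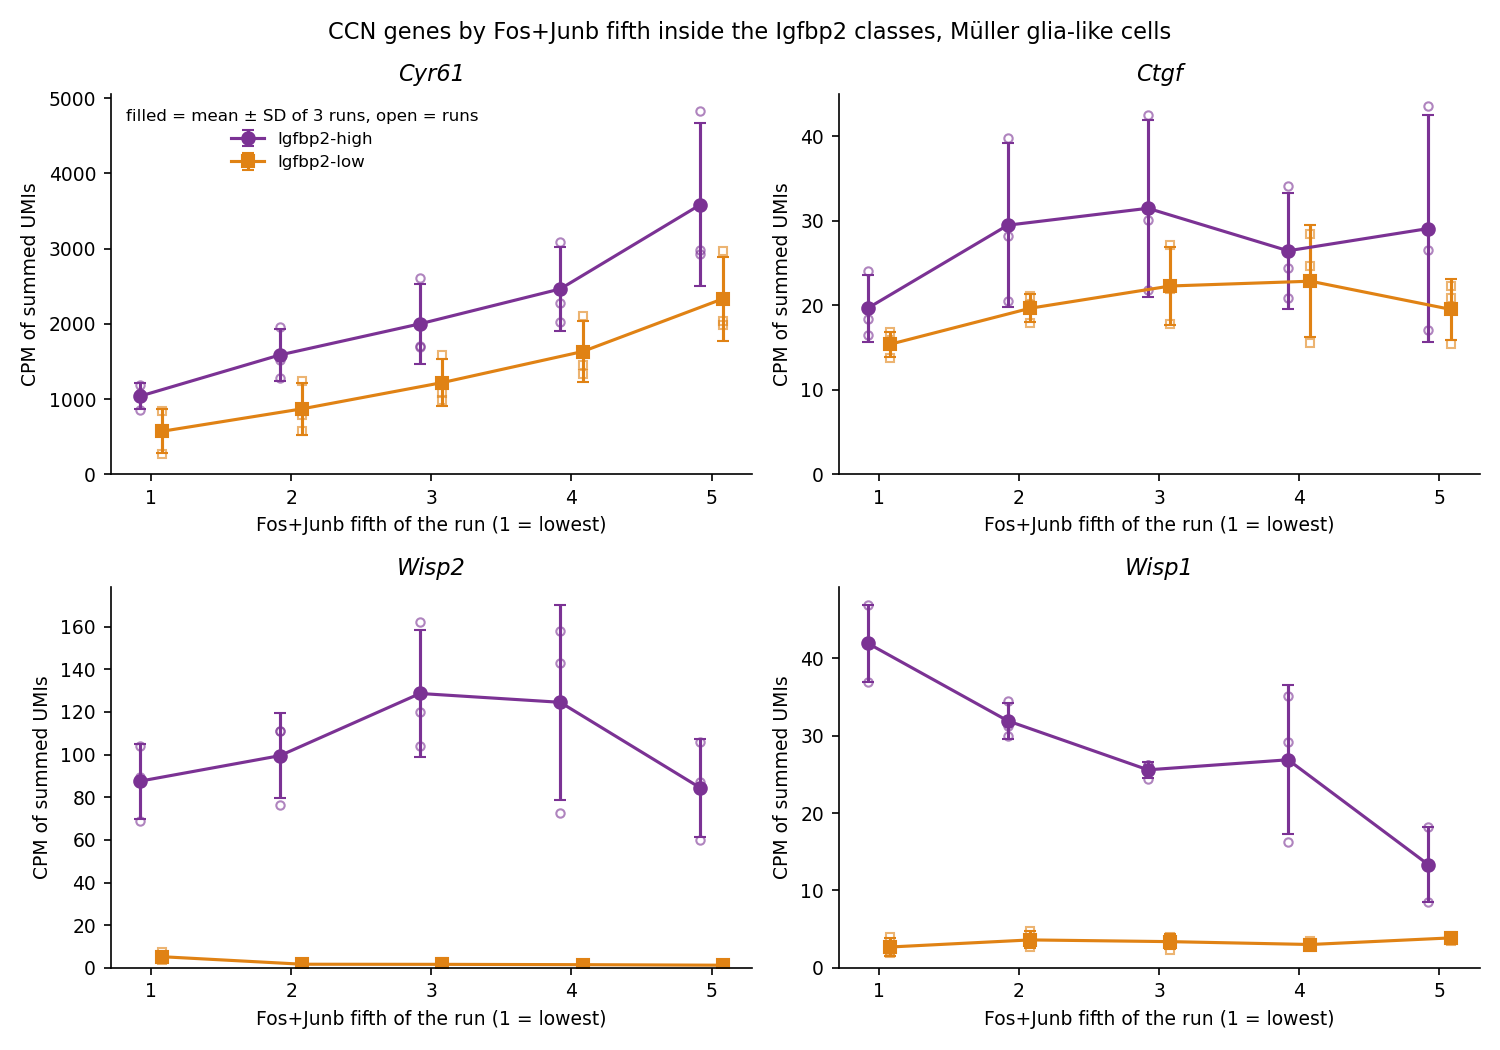
Cyr61, Ctgf, Wisp2 and Wisp1 (y axes, CPM of summed UMIs) by Fos+Junb quintile of the run (x axis, low to high) in Igfbp2-high (circles) and Igfbp2-low (squares) Müller glia-like cells; filled points are means of 3 runs with SD bars and open points are runs. Cyr61 climbs in both classes (to 3585 and 2333 CPM), while Wisp2 has no single direction in Igfbp2-high cells and is 1.23 CPM in the highest and 5.21 CPM in the lowest quintile of Igfbp2-low cells.

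Whether the Fos+Junb difference was of another size in Igfbp2-high than in Igfbp2-low cells was tested in 1 fit across 12753 genes, of which 216 or 1.69% were called, 1.36% higher and 0.337% lower (edgeR's quasi-likelihood test, Benjamini-Hochberg adjusted p under 0.05, as in all tests below). The fit crosses 2 of the splits proposed with the members, so its p-values for the family are not free of that choice. None of the 3 members was called. The log2 difference between the effects was -0.68 ± 0.28 for Cyr61 (adjusted p = 0.287 by edgeR), 0.70 ± 0.37 for Ctgf (adjusted p = 0.415) and 1.39 ± 0.47 for Wisp2 (adjusted p = 0.184). The upper quintile inside the Igfbp2-high class held only 84 cells, 14 to 36 per run, and leaving out a run lowered the calls to 51 to 113. Among the listed genes F3 (1.65), Fgf2 (2.42), Atf3 (1.62), Ier3 (1.92), Id1 (1.44), Thbs1 (3.03) and Tnc (5.04) had a more positive upper-to-lower change in Igfbp2-high cells. Over all cells Thbs1 and Tnc fell from the lower to the upper quintile (-2.85 and -3.44). A positive value can therefore also be a weaker fall. With quintiles ranked inside each Igfbp2 class, an added alternative that calls 16.5% of genes, Cyr61 showed a difference of -0.01 ± 0.18 (adjusted p = 0.986 by edgeR). Ctgf then showed 2.37 ± 0.24 (adjusted p = 8.57e-05) and Wisp2 1.15 ± 0.36 (adjusted p = 0.0458). With Müller glia-like cells alone, where 11.2% were called, these were 0.02 ± 0.20 for Cyr61 (adjusted p = 0.963), 1.39 ± 0.21 for Ctgf (adjusted p = 0.00147) and 1.41 ± 0.33 for Wisp2 (adjusted p = 0.0164). Behind them lie Ctgf levels of 28.3, 37.3 and 22.3 CPM in the upper and 12, 9.84 and 9.10 CPM in the lower quintile of Igfbp2-high cells. In Igfbp2-low cells Ctgf stood at 21.6, 21.7 and 16.1 CPM in the upper and 17.1, 19.6 and 18 CPM in the lower quintile. Wisp2 averaged 118 CPM in the upper and 86.7 CPM in the lower quintile of Igfbp2-high cells, and 1.16 and 2.43 CPM in those of Igfbp2-low cells. So Ctgf rose more with Fos+Junb in Igfbp2-high than in Igfbp2-low cells in this ranking, and the call depends on how the quintiles are drawn.

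The genes nearest to each member from cell to cell were named by their mean Pearson's r over the 3 runs in Müller glia-like cells (log values at 3500 UMIs, 2892 genes of at least 50 CPM). For Cyr61 they were Fos (0.42), Jun (0.39), Btg2 (0.37), Junb (0.37), Ier2 (0.36) and Egr1 (0.31), all immediate early genes. Igfbp2 stood at -0.06 with Cyr61. For Wisp2 they were Igfbp2 (0.38), the tropomyosin gene Tpm1 (0.32), the calponin gene Cnn2 (0.31), S100a11 (0.29), Wbp5 (0.28) and the tubulin gene Tuba1b (0.28). For Ctgf no gene passed 0.06, the value of Cyr61. Fos, Junb and Igfbp2 were used to draw the splits proposed with the members, so their places here are a description. The cells of a run share a library and their depth was made equal.

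Which genes go with Cyr61 was tested between the upper and lower Cyr61 quintile of each run (4933 and 4935 cells, ranked at 3500 UMIs). Of 13533 genes, 20.3% were called, 10.5% higher and 9.78% lower; the 2742 calls fell to 1597 without run 1 and 1434 without run 2. Ctgf stood at 32.6, 38.0 and 23.0 CPM in Cyr61-high cells, against 19.2, 19.5 and 15.3 CPM in Cyr61-low cells, and rose by 0.80 ± 0.09 on the log2 scale (adjusted p = 7.11e-04 by edgeR). The call was lost without the run block (adjusted p = 0.0929). Wisp2 was 49.3, 30.9 and 43.6 CPM in Cyr61-high and 39.3, 33.3 and 54.3 CPM in Cyr61-low cells, with a log2 change of -0.02 ± 0.11 (adjusted p = 0.931 by edgeR). Among the cells of the authors' normalised table Wisp2 rose by 0.48 ± 0.08 (adjusted p = 0.00613 by edgeR), and it was higher in each run. Fos and Junb, which the splits used, are left out of the next count. Of the 26 other immediate early genes tested, 24 rose and none fell (median log2 1.58, against 0.01 over all genes tested), Btg2 by 1.69 among them. Of 21 YAP targets outside the family, 5 rose and 2 fell (median -0.03), and Amotl2, an angiomotin that binds YAP, rose by 0.74 ± 0.08. Among Müller glia-like cells, where 18.6% of genes were called, 25 of these 26 immediate early genes and 5 of 21 YAP targets rose, and Ctgf rose by 0.80 ± 0.08. Cyr61-high cells were 21.1% Igfbp2-high against 31.3% in Cyr61-low cells.

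Holding the Fos+Junb level changed that picture. Cyr61 quintiles were drawn inside each Fos+Junb quintile of each run, which gave 4929 Cyr61-high cells at 2164, 2150.1 and 2854 CPM of Cyr61 and 4940 Cyr61-low cells at 465, 525 and 872 CPM. Fos then differed less, at 1511, 1669 and 2901 CPM in Cyr61-high and 1619, 1571 and 2619 CPM in Cyr61-low cells. Wisp2 stood at 72.0, 42.1 and 66.2 CPM in Cyr61-high cells, against 21.2, 19.0 and 30.2 CPM in Cyr61-low cells, without overlap, and rose by 1.35 ± 0.11 (log2, adjusted p = 5.40e-05 by edgeR). Ctgf stood at 35.5, 40.2 and 23.6 CPM in Cyr61-high against 20.3, 19.4 and 15.9 CPM in Cyr61-low cells and rose by 0.84 ± 0.09 (adjusted p = 1.82e-04). Wisp1 rose by 0.81 ± 0.09 (adjusted p = 2.86e-04). All 3 were higher in Cyr61-high cells of every run, in a comparison that called 37.4% of 13644 genes, 19.8% higher and 17.6% lower. The 5104 calls fell to 3351 without run 3. Igfbp2-high cells made up 37.2% of Cyr61-high and 16.4% of Cyr61-low cells, and cycling cells 30.3% and 16.1%.

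Of 21 YAP targets outside the family, 16 rose and 1 fell between these classes (median log2 0.60, against -0.02 over all genes, of which 19.8% rose and 17.6% fell). With Müller glia-like cells alone, where 39.4% were called, 18 rose and 2 fell. Amotl2 stood at 218 CPM in Cyr61-high and 73.4 CPM in Cyr61-low cells, a rise of 1.60 ± 0.06 (adjusted p = 1.03e-06 by edgeR). Axl, a receptor tyrosine kinase, rose by 0.60, the stress gene Gadd45a by 0.23 and the ligand gene Tgfb2 by 0.17. Ankrd1 and Nuak2 rose by 2.15 and 1.78 and Myof fell by 0.29; these 3, and Btg2 and Fosb below, were picked after their values were seen. Of 26 immediate early genes 14 rose and none fell, with a median of 0.23. Jun rose by 0.26, Klf6 by 0.25, Egr1 by 0.23 and Ier2 by 0.20, while Btg2 (0.08) and Fosb (0.05) did not pass. Of 16 targets of SRF and its MRTF cofactors 14 rose and none fell (median 0.39): Tpm1 by 1.08, the actin genes Actb and Actg1 by 0.26 and 0.22, and Tagln2 by 0.21.

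Among other secreted matrix genes 4 of 9 rose and 2 fell, Spp1 by 6.53 and Sparcl1, picked after its values were seen, by 3.03, beside 19.8% and 17.6% of all genes. Müller glia-like cells alone gave 5 of 8 that rose and none that fell. Thbs1, which encodes thrombospondin, rose by 1.93 ± 0.11 (44.3 CPM in Cyr61-high and 12 CPM in Cyr61-low cells), Fbln5, an elastic fibre protein, by 1.32 and Sparc, a collagen-binding protein, by 0.53. Of 10 TGF-beta targets 5 rose and 3 fell: Bambi rose by 0.28, and Pmepa1 and Id1 fell by 0.46 and 0.41. Of 14 receptors and binding partners of CCN proteins 2 rose and 7 fell, beside 19.8% and 17.6% of all genes. Müller glia-like cells alone gave 3 rising and 5 falling of 13. The integrin subunit gene Itgb1 rose by 0.32, while Itgav, Itgb5 and the syndecan gene Sdc4 fell by 0.14, 0.16 and 0.23. Itgb2 and Tgfb1, picked after their values were seen, fell by 3.53 and 2.00. Both were scarce: Itgb2 stood at 0.237 CPM in Cyr61-high and 2.98 CPM in Cyr61-low cells, and Tgfb1 at 1.93 and 8.18 CPM. The Cyr61-low class held more microglia-like cells (counts below), and their part in these falls was not tested. The largest rises among genes of at least 50 CPM included Tinagl1 (1.76), Amotl2, the cytokine gene Csf1 (1.47) and H2afx (1.42). Cdk1 (1.52) and Igfbp2 (1.48, 1952 CPM in Cyr61-high and 704 CPM in Cyr61-low cells) rose as well. Both were used to draw the splits, so their values are a description. The largest falls were Spp1 (-6.53) and Lyz2 (-5.10), both abundant in microglia, then Pold4 (-0.96) and Nupr1 (-0.92). Microglia-like cells were 1 of 4929 Cyr61-high and 59 of 4940 Cyr61-low cells. Restricted to Müller glia-like cells, Spp1 changed by -0.52 (adjusted p = 0.0838 by edgeR) and Lyz2 by 0.73 (adjusted p = 0.0117), while Amotl2 changed by 1.52 and Pold4 by -1.09.

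An added ranking drew the Cyr61 quintiles inside each Igfbp2 class as well, so that 26.4% of both classes were Igfbp2-high and 23.1% and 22.5% were cycling. It called 10.9% of 13522 genes. Ctgf stood at 32.9, 36.1 and 23.1 CPM in Cyr61-high against 23.3, 22.2 and 18.4 CPM in Cyr61-low cells and rose by 0.54 ± 0.07 (adjusted p = 1.96e-04 by edgeR). Among Müller glia-like cells, where 10.3% of genes were called, it rose by 0.69 ± 0.07 (adjusted p = 1.59e-07). Wisp2 stood at 55.6, 32.3 and 52.9 CPM in Cyr61-high against 40.1, 29.0 and 43.6 CPM in Cyr61-low cells, a smaller rise of 0.32 ± 0.06 (adjusted p = 0.00339). Wisp1 did not pass (0.25 ± 0.08, adjusted p = 0.0562). Of the 21 YAP targets 9 rose and 1 fell (median 0.13), of the 26 immediate early genes 20 rose and none fell (0.34), and of the 16 SRF and MRTF targets 8 rose and none fell (0.13). The Müller glia-like cells alone gave 7 YAP targets that rose and 1 that fell, and 22 of 26 immediate early genes that rose. Of the CCN receptors and partners 5 of 14 fell and 0 rose over all cells, and among Müller glia-like cells 0 of 13 were called in either direction. Amotl2 rose by 0.78, Ankrd1 by 1.24, Nuak2 by 0.91 and Thbs1 by 0.87, and Dusp1, a phosphatase gene of the early response picked after its values were seen, by 0.79. The ranking did not make Igfbp2 equal: it stood at 1796, 1372 and 1534 CPM in Cyr61-high and 1202, 974 and 997 CPM in Cyr61-low cells. Fos was 1579.7, 1706 and 2945 CPM in Cyr61-high and 1532, 1530.4 and 2555 CPM in Cyr61-low cells. The part of these remaining differences in the list counts was not tested.

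**Figure D5:**
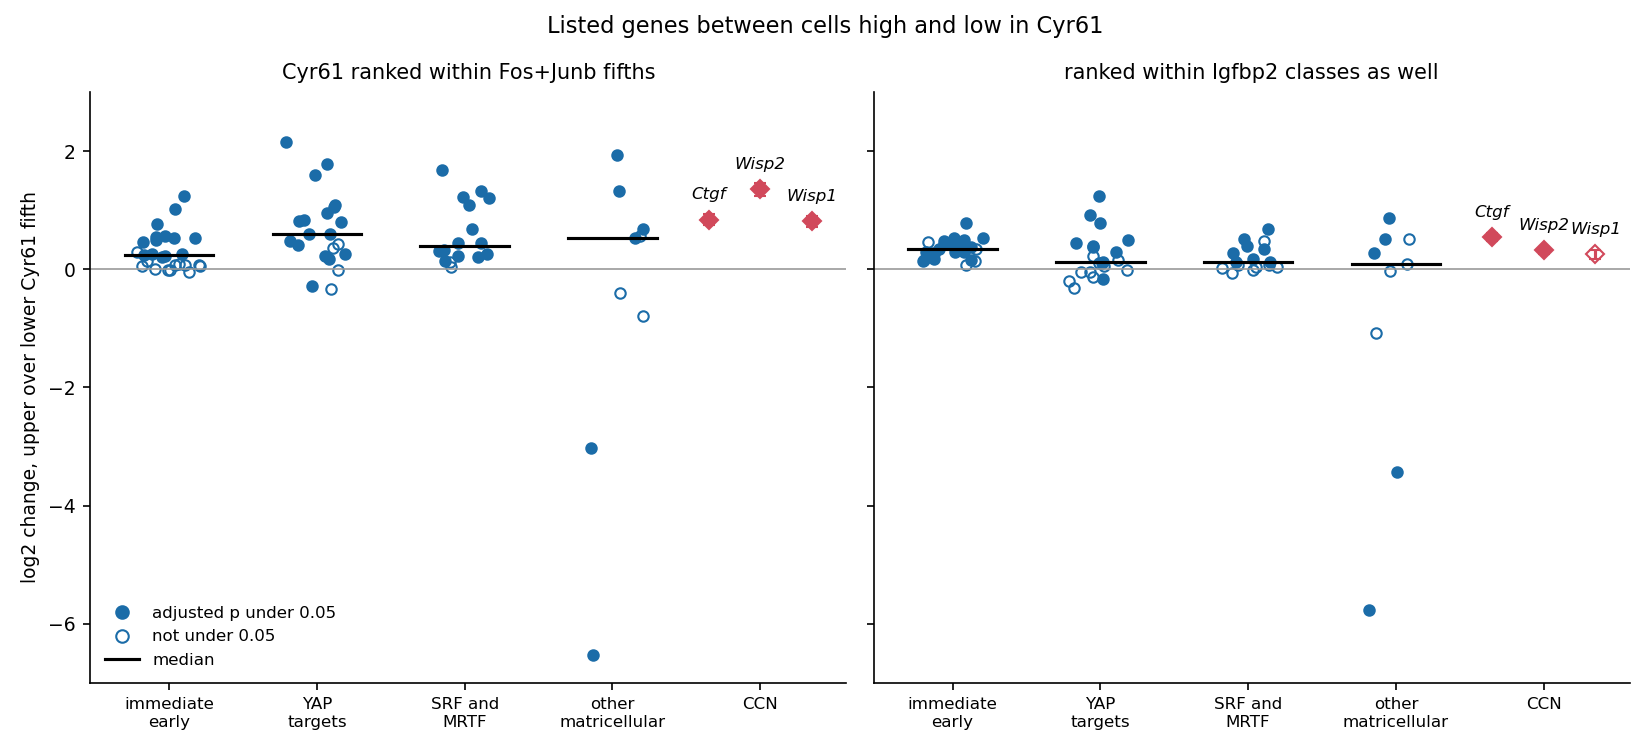
Log2 change between the upper and lower Cyr61 quintile (y axis) of each listed gene (points, filled where the adjusted p is under 0.05, with a bar at the list's median) and of Ctgf, Wisp2 and Wisp1 (diamonds with SE), ranked within Fos+Junb quintiles (left) and within Igfbp2 classes as well (right). The median of YAP targets is 0.60 on the left and 0.13 on the right, that of immediate early genes 0.23 and 0.34, and Wisp2 stands at 1.35 and 0.32.

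Cells ranked by Ctgf in the same way, inside Fos+Junb quintiles, differed in few genes: 0.749% of 13615 were called, 0.683% higher and 0.0661% lower, and the 102 calls became 188 without run 2 and 283 without run 3. Ctgf itself stood at 72.0, 78.2 and 57.6 CPM in the 4929 Ctgf-high and 15.6, 18.2 and 12.6 CPM in the 4940 Ctgf-low cells. Cyr61 was 1264, 1361 and 1787 CPM in Ctgf-high against 1244, 1248 and 1744 CPM in Ctgf-low cells, a log2 change of 0.05 ± 0.02 (adjusted p = 0.501 by edgeR). Wisp2 was 40.5, 33.3 and 46.4 CPM in Ctgf-high against 45.5, 29.6 and 58.4 CPM in Ctgf-low cells (-0.13 ± 0.07, adjusted p = 0.799). The ranges of both overlapped. Cyr61 passed without run 3 (0.07, adjusted p = 0.0384 by edgeR) and Wisp2 without run 2 (-0.26, adjusted p = 0.0322 by edgeR). Among genes of at least 50 CPM, Rgs5 (2.23), Igfbp5 (2.16), the lipocalin gene Lcn2 (1.33), Ifitm2 (0.79), Chil1 (0.77) and Tsc22d1 (0.72) rose the most. Cited1 (-0.26), Chchd10 (-0.21) and Nupr1 (-0.19) were among the genes of that level that fell the most. Astrocyte-like cells were 3.21% of Ctgf-high and 0.607% of Ctgf-low cells. Among Müller glia-like cells alone, 0.180% of genes were called, and Rgs5 changed by 0.46 (adjusted p = 0.862 by edgeR), Igfbp5 by 0.10 (adjusted p = 0.975) and Lcn2 by -0.82 (adjusted p = 2.15e-07). Of the YAP targets 2 of 21 rose over all cells, F3 by 0.15 and Igfbp3 by 0.60, and neither they nor any other of the 21 passed among Müller glia-like cells alone. Few Ctgf UMIs per cell lie behind this ranking. Müller glia-like cells of runs 1 to 3 held at most 9, 12 and 6 before thinning. At the thinned depth used for ranks, only 6.85, 7.54 and 5.51% of these cells had a Ctgf UMI. A quintile is larger than this, so Ctgf-low cells and most Ctgf-high cells were tied without a UMI. The ranking cannot order tied cells. The few calls therefore do not decide whether Cyr61, Wisp2 or the YAP targets go with Ctgf.

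The other listed genes in the 3 splits are read against very large backgrounds. Between Igfbp2-high and Igfbp2-low cells 81.1% of 14708 genes were called, 39.6% higher and 41.5% lower. There 16 of 21 YAP targets rose and 3 fell (median 2.06, against -0.03 over all genes), with Amotl2 at 278 CPM in Igfbp2-high and 39.4 CPM in Igfbp2-low cells and Axl at 371 CPM in Igfbp2-high and 96.0 CPM in Igfbp2-low cells. Müller glia-like cells alone gave the same counts for YAP targets, with 81.2% of genes called. Of 28 immediate early genes 3 rose and 20 fell (median -1.26), and of 17 SRF and MRTF targets 14 rose and 3 fell. Fos (-1.56) and Junb (-2.27), which the splits used, are among those 20 and are also counted between cycling cells and the others. Cnn2 rose by 4.93, Tpm1 by 4.33, Fbln5 by 5.47 and Thbs1 by 4.06. Of 14 CCN receptors and partners 2 rose, Itgb1 by 1.29 among them, and 8 fell, Itgav by 0.49 and Itgb8 by 0.72 among them. Between cycling cells and the others, 81.0% were called, 39.3% higher and 41.7% lower, and 15 YAP targets rose and 3 fell of 21, with 2 of 29 immediate early genes rising and 21 falling. Between the upper and lower Fos+Junb quintile, 77.3% were called, 38.9% higher and 38.4% lower, and 22 of 26 immediate early genes rose (median 2.66) while 2 of 21 YAP targets rose and 16 fell (median -1.96). Müller glia-like cells alone, with 78.1% called, gave 21 of 25 immediate early genes rising and 16 of 21 YAP targets falling. Gadd45a, which is on the YAP list and is also stress-induced, fell in Igfbp2-high cells by 0.50 and rose in the upper Fos+Junb quintile by 0.97.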

How the data were processed

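UMI counts of 3 droplet runs (1 group) were used as the authors deposited them, one table of counts per gene and cell. Per the submitters' processing notes, Cell Ranger, Seurat 2.3.4 and the build mm10 were used; their settings are not given in the sources used here. The authors also deposited a table of 13511 of the cells (54.7%) whose values match the natural log of 1 plus counts per 10000, and it served to mark those cells. The genes and lists were chosen with earlier results of these data known.

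A cell had to show 500 genes and no more than 20% mitochondrial UMIs; doublets were not called. Kept cells were thinned to 3500 UMIs for shares, ranks and correlations. Clusters came from scanpy 1.11.5 (2000 variable genes without the CCN genes, 30 components, 15 neighbours, Leiden 1.0) and were named from markers. Raw counts were summed per class and run and tested with edgeR 4.0.16 (quasi-likelihood, filterByExpr, TMM, Benjamini-Hochberg over all genes), with run as a block: classes of a run come from 1 library, which pairs them by construction. DESeq2 1.42.0 was an alternative, and the test was checked on simulated counts. Genes named beside the family are the 6 nearest by correlation, the 6 largest rises and 4 largest falls of at least 50 CPM in the fits within Fos+Junb quintiles, and the 4 most abundant called members of each list. Others are said to be picked after their values were seen. Some genes that this rule names are not reported here.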

Additional observations from a re-analysis of the deposited data

Results flagged for a closer look

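Wisp1, the family member next to Wisp2 in its pattern, had a Fos+Junb difference of another size in Igfbp2-high than in Igfbp2-low cells: the log2 difference between the effects was -1.83 ± 0.40 (SE, adjusted p = 0.0367 by edgeR, with -1.67, -1.43 and -2.31 in the 3 runs). Over the alternatives it ranged in log2 from -2.17 to -0.17 and in adjusted p from 0.00138 to 0.951. In the cells of the authors' own normalised table it was -0.17 ± 0.63 (adjusted p = 0.951), and in cells thinned to 3500 UMIs -1.03 ± 0.73 (adjusted p = 0.587). Without run 1, 2 or 3 it was -1.94, -1.96 and -1.59, with adjusted p of 0.184, 0.135 and 0.190.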

How the results depend on the processing

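Directions and calls were recomputed under each alternative; those named as held or ranked within a class were chosen after seeing the data. Cyr61 between Igfbp2 classes turned to 0.16 in the authors' cells and to 0.66 and 0.64 (Müller glia-like only) with the Fos+Junb quintile held. Ctgf there was 0.23 (Müller glia-like only), 0.38 (authors' cells), and 1.15 and 0.36 with the quintile held. By cycling, Cyr61 was -0.0041 (authors' cells) and 0.39 (held), Ctgf 0.05 (Müller glia-like only) and 0.10 (authors' cells), and Wisp2 2.19 (Müller glia-like only), 1.57 (authors' cells), 2.73 (thinned) and 1.99 (held). By Fos+Junb, Cyr61 was 0.95 and Wisp2 -2.34 in the authors' cells, and Ctgf -0.20 (no filter), -0.03 (Müller glia-like only), -0.03 (thinned) and 0.09 (authors' cells). Per cell, the log2 ratios were 0.94 for Cyr61 by Igfbp2 and 0.90 by cycling, and 0.92 for Ctgf by cycling.

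The count of genes with another Fos+Junb effect by Igfbp2 class, 216, was 435 with no filter, 564 with DESeq2, 64 in Müller glia-like cells, 92 in the authors' cells, and 2155 and 1426 (Müller glia-like only) with quintiles ranked within Igfbp2 classes. Members there were 0.02 for Cyr61, 2.37 and 1.39 for Ctgf and 1.15 and 1.41 for Wisp2 under that ranking, and -0.13 for Ctgf in the authors' cells. Between Cyr61 quintiles 1334 genes were called by DESeq2 and 550 in the authors' cells, where Wisp2 was 0.48 and was called. Within Fos+Junb quintiles, 2469 were called by DESeq2, 1891 in thinned cells, and 1479 and 1369 (Müller glia-like only) when ranked within Igfbp2 classes too. Between Ctgf quintiles 54 were called by DESeq2, 24 in Müller glia-like and 11 in the authors' cells. Without the replicate block, the counts were 62, 8, 1332 and 11 for these 4 comparisons, and Ctgf between Cyr61 quintiles was 0.82 and no longer called. The cause was not tested.

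Leaving out each run in turn gave 51 to 113 genes for the test of the Fos+Junb effect by Igfbp2 class, 1434 to 2121 between Cyr61 quintiles, 3351 to 5170 within Fos+Junb quintiles and 102 to 283 between Ctgf quintiles. Wisp2 between Cyr61 quintiles lay at -0.21 to 0.13. Cyr61 by Igfbp2 class lay at -0.11 to 0.03, and between Ctgf quintiles Cyr61 lay at 0.02 to 0.07 and Wisp2 at -0.26 to -0.01. The few UMIs of Ctgf and Wisp2 per cell, and the 84 cells of the smallest class, limit what could be detected.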

Other observations

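The authors' normalised table keeps 13511 of the cells, and Wisp2 was higher in these than in the 11161 others. Wisp2 stood at 62.6, 43.8 and 67.0 CPM in the kept cells of runs 1 to 3, against 18.7, 12.2 and 17 CPM in those left out. Cyr61 went the other way, at 1228, 1216 and 1589 CPM in the kept cells against 1294, 1412 and 2058 CPM in those left out. Ctgf stood at 23.5, 27.8 and 18 CPM in the kept cells against 33.0, 35.5 and 25.6 CPM in those left out. Neither Cyr61 nor Ctgf was higher in the kept cells of any run. The kept cells included 1521, 1849 and 1642 of the 2111, 2352 and 2057 Igfbp2-high cells of runs 1 to 3. As Igfbp2-high cells held 96.6% of all Wisp2 UMIs, the classes differ in the cells that carry Wisp2. The part of this in the Wisp2 difference was not tested.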
